A study of Mus musculus with 48 samples.

Results

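The genes described are 10 members of the mouse Ifi200 family, also called the PYHIN family: Ifi203, Ifi204, Ifi205, Ifi207, Ifi208, Ifi209, Ifi211, Ifi213, Mndal and Aim2. They are 10 of 36854 genes counted in bulk RNA-seq of 48 mouse sarcomas, and they were chosen by name, as a family, because Ifi207 had been the clearest gene raised by 20 Gy in the primary tumours. The radiation values of the primary tumours are therefore given as a description, with no test, and the tests below rest on the allografts, on the antibody comparisons, on the unirradiated tumours and on the spread between primary tumours of the same dose. Most PYHIN proteins carry 1 or more HIN domains, which bind double-stranded DNA, and most carry a pyrin domain, through which they assemble with other proteins. Aim2 senses DNA in the cytosol and builds an inflammasome with the adaptor Pycard and the protease Casp1, and Ifi204 is the member most often set beside human IFI16, a sensor that acts through STING. The genes are best known in macrophages and other white blood cells, and many of them are induced by type I interferon.

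The 32 primary tumours arose in the 129/SvJae strain background of mice with p53 FL/FL alleles, aged 6 to 10 weeks, whose calf muscle received an adenovirus expressing Cre and 300 ug of the carcinogen MCA. For the 16 allografts, 50000 cells of line 402230 were placed in the same muscle of syngeneic mice; being 1 line, they represent 1 tumour. Every tumour was treated at about 150 mm3, received 200 ug of either an isotype control or the anti-PD-1 antibody muDX400, had 0 or 20 Gy of X-rays to the left hind limb, and was harvested on day 3. This gave 8 groups: 0 Gy with isotype, 0 Gy with anti-PD-1, 20 Gy with isotype and 20 Gy with anti-PD-1, with 4 allografts and 8 primary tumours in each. The p53 deletion is limited to cells that took up Cre, host cells keep the gene, and Trp53 was counted in all 48 tumours at 19.9 to 62.7 counts-per-million (CPM). Library totals were 31.8 to 54.01 M counts. Levels are CPM scaled by edgeR's trimmed mean of M values (TMM), and p-values measure the spread between tumours of a group.

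The family lies in a single cluster on mouse chromosome 1 (chr1:173350879-174031810, mm10), which spans 680.9 kb with Aim2 at its low-coordinate end and Ifi205 at its high-coordinate end. All 10 genes are annotated as protein coding. Their exons are similar in sequence, and 75-base transcript windows were compared with those of the other genes in and next to the cluster. The share also found in another of these genes was 63.6% for Ifi211, 23.1% for Ifi209, 16.6% for Ifi205, 13.2% for Ifi204, 11.8% for Ifi208, 11.1% for Mndal, 8.07% for Ifi213, 5.71% for Ifi203, 2.80% for Ifi207 and 0% for Aim2. Genes elsewhere in the genome were not compared. Reads of such windows can be lost or assigned to the wrong gene. By this sharing within the cluster, the values of Ifi211 are the most uncertain and those of Aim2 and Ifi207 the least. Mndal and Ifi203 also overlap on the same strand in 37 exonic bases.

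Because the members moved together, the bases before their RefSeq starts (GRCm38.p6) were searched on both strands for GAAANNGAAA, the core of the interferon-stimulated response element (ISRE), and for TTCNNNGAA, the gamma-activated (GAS) motif. RefSeq windows were matched for 9 members, all except Ifi204. Ifi203 and Mndal have a pair of windows each, so that the 9 members have 11. The 250 bases upstream held the ISRE letters in 8 of these 11 windows, against 978 of 32851 windows of the same length over all genes (2.98%). By gene, 7 of 9 members had the letters in at least 1 window (Ifi203, in only 1 of its pair, Ifi205, Ifi207, Ifi208, Ifi211, Ifi213 and Mndal). The GAS letters were in 0 of 11 windows and in 7.02% of all windows. The 150 bases upstream are printed for 6 members, on the strand of the gene and with the ISRE letters in capitals: Ifi207 and its near copy Ifi211, the near copies Ifi208 and Ifi213 that had among the largest changes after 20 Gy, and Ifi209 and Aim2, which lack the letters.
Ifi207 (chr1:173741810-173741959, minus strand): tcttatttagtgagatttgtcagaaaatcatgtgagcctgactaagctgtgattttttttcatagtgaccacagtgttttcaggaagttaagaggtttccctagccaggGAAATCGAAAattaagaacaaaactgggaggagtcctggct
Ifi211 (chr1:173913047-173913196, minus strand): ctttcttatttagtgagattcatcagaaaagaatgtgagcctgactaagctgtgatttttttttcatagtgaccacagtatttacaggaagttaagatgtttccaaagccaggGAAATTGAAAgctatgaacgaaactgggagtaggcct
Ifi208 (chr1:173673515-173673664, plus strand): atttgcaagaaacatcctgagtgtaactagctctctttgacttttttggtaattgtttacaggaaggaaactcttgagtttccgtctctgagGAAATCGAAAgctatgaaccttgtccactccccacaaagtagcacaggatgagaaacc
Ifi213 (chr1:173599273-173599422, minus strand): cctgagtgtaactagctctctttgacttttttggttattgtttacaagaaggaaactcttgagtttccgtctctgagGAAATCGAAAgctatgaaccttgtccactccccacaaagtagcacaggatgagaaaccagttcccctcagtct
Ifi209 (chr1:173630709-173630858, plus strand): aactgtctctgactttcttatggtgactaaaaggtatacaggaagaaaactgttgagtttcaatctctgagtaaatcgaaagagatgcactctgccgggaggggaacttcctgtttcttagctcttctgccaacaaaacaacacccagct
Aim2 (chr1:173420454-173420603, plus strand): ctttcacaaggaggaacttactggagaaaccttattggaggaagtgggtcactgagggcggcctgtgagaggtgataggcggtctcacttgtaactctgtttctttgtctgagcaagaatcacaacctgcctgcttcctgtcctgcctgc
In these stretches Ifi207 and Ifi211 were identical at 86.7% of bases, Ifi208 and Ifi213 at 88.7%, and Ifi203 and Mndal, not printed, at 92.0%. The ISRE letters began 41 bases before the start in Ifi207, 37 in Ifi211, 58 in Ifi208 and 73 in Ifi213. Both members without the letters hold runs that differ from them by 1 substitution, counted from 1 at the 5′ end of the motif. Ifi209 has taaatcgaaa on the strand of the gene, 79 bases before its start (G1T), and on the other strand gaaacaggaa at 43 (A8G) and gagattgaaa at 93 bases (A3G). Aim2 has gacaaagaaa on the other strand, 51 bases before its start (A3C). Runs with at most 1 substitution are common, being in 18.8% of all windows of 150 bases. A match of letters is a description of the sequence and shows no binding.

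Levels between genes were compared per kilobase of exon (CPM per kb). In the unirradiated primary tumours given isotype, Ifi211 was at 14.7 ± 8.81 CPM per kb (SD, n = 8), Ifi204 at 14.0 ± 6.08 and Ifi203 at 13.1 ± 4.38, and these 3 did not differ beyond their spread. Ifi207 (8.64 ± 1.07) and Mndal (8.45 ± 4.16) followed and did not differ from each other beyond their spread. Ifi209 (3.10 ± 2.68), Aim2 (2.45 ± 0.873) and Ifi205 (1.56 ± 1.21) came next with overlapping spreads, then Ifi208 (0.470 ± 0.464) and Ifi213 (0.0570 ± 0.0533), the member of the lowest level. In the primary tumours given 20 Gy and isotype the order was Ifi204 (49.6 ± 7.97 CPM per kb), Ifi211 (48.6 ± 11.6), Ifi203 (34.6 ± 7.91), Ifi207 (31.9 ± 5.01), Mndal (23.8 ± 2.41), Ifi209 (16.7 ± 3.75), Ifi205 (9.29 ± 3.07), Aim2 (4.97 ± 2.07), Ifi208 (2.57 ± 0.595) and Ifi213 (0.469 ± 0.0931), so that Ifi205 stood above Aim2 there. With the longest transcript in place of the union of exons, Ifi203 and not Ifi211 had the highest level at 0 Gy (23.3 against 14.7 CPM per kb). At 20 Gy that length put Ifi203 above Ifi211 (61.8 against 48.6 CPM per kb) and Mndal above Ifi207 (42.7 against 31.9).

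The allografts show whether the family also rose after 20 Gy outside the primary tumours it was chosen from. Earlier results of these data were known when the members and lists were chosen, so the allografts are not a wholly independent test. With isotype, all 10 members were higher after 20 Gy, with a median log2 fold change of 1.85 against −0.0019 over all genes tested. edgeR's quasi-likelihood test, adjusted over 17746 genes, called 10 of 10 members higher, where 4.38% of all genes were called higher. For 10 of 10 members every irradiated allograft lay above every unirradiated one, a pattern found in 9.45% of all genes. The smallest change was that of Aim2, 2.08-fold, and the largest that of Ifi213, 13.4-fold.

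Ifi207 was at 15.5, 18.7, 33.2 and 18 CPM in the 4 unirradiated allografts given isotype and at 92.3, 79.3, 91.2 and 111.8 CPM in the 4 irradiated ones. The lowest irradiated allograft was thus above the highest unirradiated one, and the log2 fold change was 2.15 (SE 0.27, edgeR adjusted p 0.000902). Ifi204, the DNA sensor set beside human IFI16, was at 49.8, 58.0, 68.9 and 40.6 CPM at 0 Gy and at 199.3, 115.4, 141.1 and 170.7 CPM after 20 Gy. Its log2 fold change was 1.55 (SE 0.21, edgeR adjusted p 0.00151), again without overlap. Aim2 was at 12.2, 8.95, 11.2 and 10.8 CPM at 0 Gy and at 26.5, 18.4, 21.5 and 21.6 CPM after 20 Gy. The change of Aim2 was the smallest of the family, a log2 fold change of 1.05 (SE 0.26, edgeR adjusted p 0.0289), although its groups did not overlap either.

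Among the less studied members, Ifi213 went from 0.238, 0.159, 0.359 and 0.227 CPM to 2.82, 2.72, 4.02 and 3.54 CPM. This is the largest ratio of the family at its lowest level, with a log2 fold change of 3.74 (SE 0.42, edgeR adjusted p 0.000902). Ifi208, whose upstream bases resemble those of Ifi213, went from 1.84, 2.23, 2.45 and 1.84 CPM to 11.8, 10.1, 9.08 and 10.9 CPM, a log2 fold change of 2.35 (SE 0.31). Ifi205 went from 3.58, 5.12, 10.7 and 3.52 CPM to 22.9, 28.2, 32.7 and 31.8 CPM, also a log2 fold change of 2.35 (SE 0.39). One unirradiated allograft, replicate 3, was the highest of the 4 for 9 of 10 members, all but Aim2. Its interferon-response genes summed to 1201 CPM against 593 to 805 CPM in the other 3, and its mean of the macrophage markers was the highest of the 4 as well, at 7.30 log2 CPM. Log2 fold changes of the remaining members were 2.25 for Ifi209 (SE 0.38), 1.43 for Ifi203 (SE 0.20), 1.39 for Ifi211 (SE 0.28) and 1.23 for Mndal (SE 0.16), with edgeR adjusted p from 0.000985 to 0.0108. The call of Aim2 was lost in 6 of 8 fits that left out 1 tumour (edgeR adjusted p up to 0.125), with log2 fold changes of 0.96 to 1.13 over the 8 fits. Ifi211 lost its call without replicate 4 of the unirradiated isotype allografts (log2 fold change 1.26, edgeR adjusted p 0.0536). With the first digit of the animal identifier as a covariate both Aim2 (log2 fold change 1.19, edgeR adjusted p 0.106) and Ifi211 (1.04, 0.129) lost theirs, the change of Aim2 being no smaller than without it. The identifier began with 4 in 0 of the 4 unirradiated and 3 of the 4 irradiated allografts of this arm, and the labels do not say what the digit stands for.

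**Figure D1:**
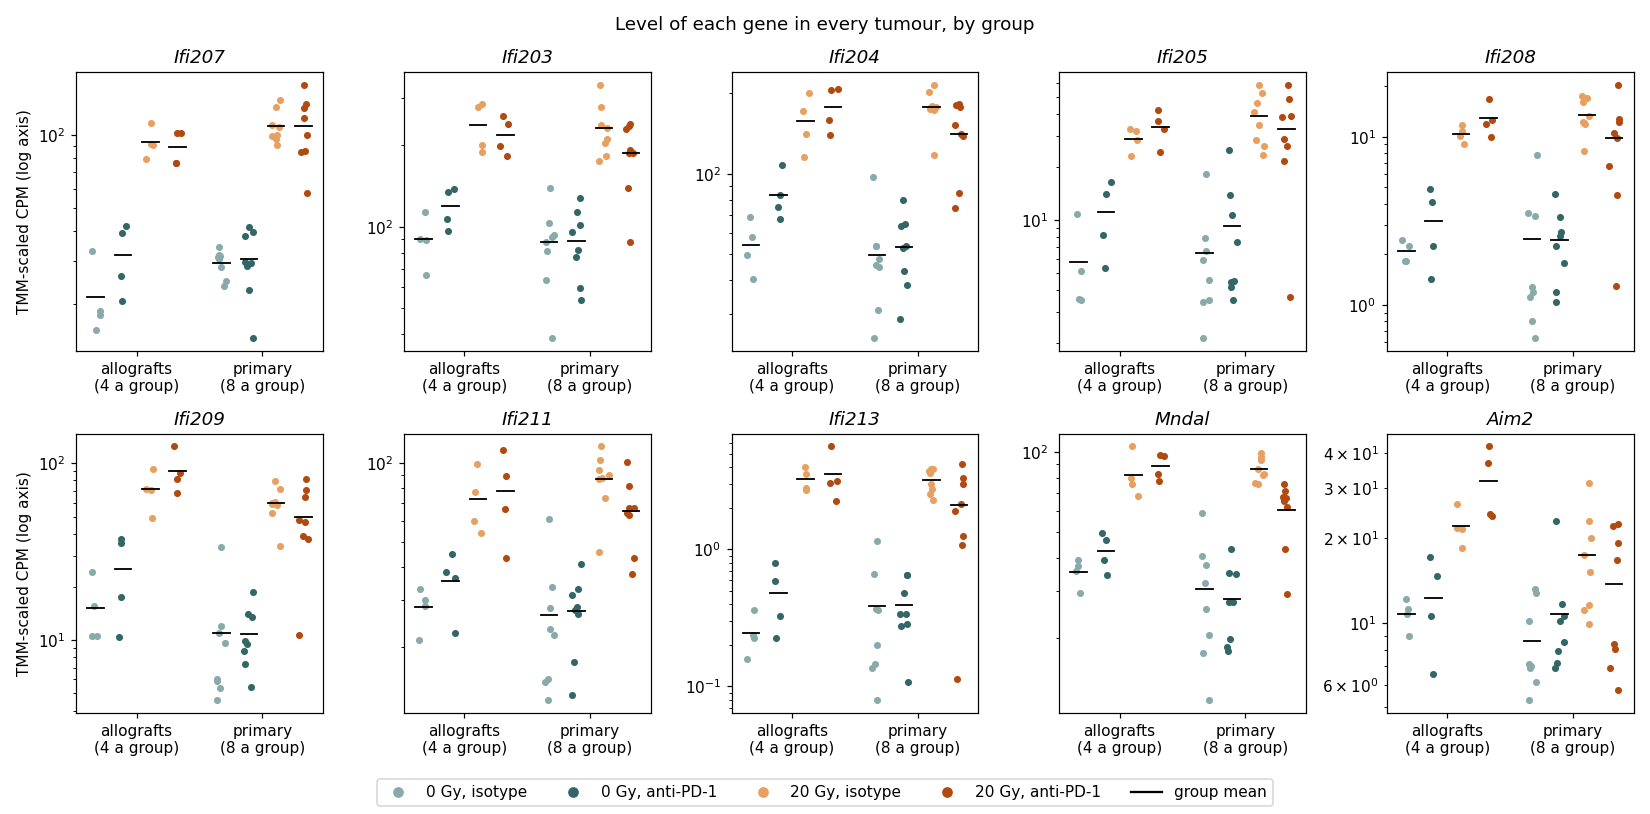
Level of each of the 10 genes in every tumour, in TMM-scaled CPM on a log axis, 1 panel a gene. Points are tumours coloured by dose and antibody, and black lines are group means; for Ifi207 the irradiated tumours of each kind lie above all unirradiated ones of the same antibody arm, while for Aim2 the primary groups overlap.

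With anti-PD-1 in both groups, 10 of 10 members were again called higher in the allografts after 20 Gy, against 3.08% of all genes, with a median log2 fold change of 1.47 (0.017 over all genes). Every irradiated allograft was above every unirradiated one for 9 members, all but Ifi211, against 5.44% of all genes. Ifi207 was at 26.2, 39.2, 41.9 and 20.5 CPM at 0 Gy and at 76.3, 102.3, 76.6 and 102.5 CPM after 20 Gy, a log2 fold change of 1.52 (SE 0.26, edgeR adjusted p 0.00891). The irradiated values overlap those with isotype, while all 4 unirradiated values exceed 3 of the 4 isotype ones. Ifi213 was at 0.587, 0.327, 0.797 and 0.226 CPM and then at 3.07, 2.27, 5.65 and 3.15 CPM, a log2 fold change of 2.89 (SE 0.40, edgeR adjusted p 0.00435). Aim2 was at 14.7, 10.6, 17.1 and 6.55 CPM and then at 24.3, 42.3, 37.1 and 23.9 CPM, a log2 fold change of 1.42 (SE 0.26, edgeR adjusted p 0.0110). The other 7 members had log2 fold changes of 0.91 (Ifi203) to 2.06 (Ifi208). These calls depend on the fit. A fit of only these 8 allografts called 0 of 10 members (edgeR adjusted p 0.0612 to 0.142). Its log2 fold changes were nearly the same, such as 1.52 for Ifi207 and 2.90 for Ifi213. DESeq2 on all 4 groups called 10. Leaving out replicate 4 of the unirradiated anti-PD-1 allografts, edgeR called 6 members, those lost being Ifi203, Ifi204, Ifi205 and Ifi211. Without replicate 2 of that group Ifi205, Ifi209 and Ifi211 were lost (Ifi209 at an edgeR adjusted p of 0.0546). The same members were lost without replicate 3 of the irradiated anti-PD-1 allografts (Ifi209 at 0.0586), and Ifi211 alone without replicate 1 of them.

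The combination of 20 Gy and anti-PD-1 was compared with the same unirradiated isotype allografts, so its values share those controls. It called 10 of 10 members, against 7.45% of all genes, with log2 fold changes of 1.30 (Ifi203) to 3.84 (Ifi213). Side by side, Ifi207 was 2.15 with 20 Gy alone and 2.08 (SE 0.27) with the combination, Ifi205 was 2.35 and 2.57 (SE 0.39), and Aim2 was 1.05 and 1.58 (SE 0.26).

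In the primary tumours, whose radiation response led to the choice, Ifi207 was at 23.7 CPM in the lowest, 31.0 in the median and 34.4 in the highest of the 8 unirradiated tumours given isotype, and at 91.0, 103.9 and 139.3 CPM in the 8 irradiated ones. The ranges are well apart. In this unirradiated group the SD was 12.4% of the mean for Ifi207 and 33.5% (Ifi203) to 98.7% (Ifi208) for the others, whereas in the unirradiated primary tumours given anti-PD-1 it was 30.1% for Ifi207, 28.9% for Ifi203 and 30.7% for Ifi204. In the unirradiated isotype allografts the SD was 37.6% of the mean for Ifi207, the third highest of the 10 after Ifi205 (59.5%) and Ifi209 (42.3%). The member just inside a separation of the doses was Ifi209, whose lowest irradiated tumour was at 34.2 CPM and highest unirradiated one at 33.5 CPM, followed by Ifi208 at 8.20 against 7.82 CPM. Those outside it were Ifi211, at 45.8 against 60.9 CPM, and Aim2, at 9.89 against 13.2 CPM. As a description, log2 fold changes with isotype were 3.05 for Ifi213, 2.58 for Ifi205, 2.47 for Ifi208, 2.45 for Ifi209, 1.91 for Ifi207, 1.85 for Ifi204, 1.74 for Ifi211, 1.51 for Mndal, 1.42 for Ifi203 and 1.05 for Aim2. The doses did not overlap for 8 of 10 members (1.55% of all genes). These are the values behind the choice and support nothing further. Marker lists of cell types differed in sign in the same comparison. Median log2 fold changes were 2.54 for monocytes and neutrophils, 0.67 for macrophages, 0.49 for dendritic cells, 0.85 for T and NK cells, 1.40 for B cells and 2.21 for skeletal muscle. Endothelium was at −0.17, and mesenchymal tumour cells and fibroblasts were at −0.45. The monocyte and neutrophil markers summed to 117.6 to 543.6 CPM at 0 Gy and 275.5 to 2254 CPM at 20 Gy, and the macrophage markers to 1778 to 3530 and 2275 to 4437 CPM, so that both ranges overlap. Their part in the members' values was not tested.

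With anti-PD-1, Ifi207 was at 14.4 CPM in the lowest, 29.8 in the median and 41.8 in the highest unirradiated primary tumour and at 57.6, 108.7 and 162 CPM in the irradiated ones. It was the only member without overlap in this arm (1 of 10, against 0.259% of all genes). Aim2 was at 6.91, 9.35 and 22.9 CPM at 0 Gy and at 5.76, 12.5 and 22.4 CPM after 20 Gy, so that 0 of 8 irradiated tumours lay above the highest unirradiated one. The log2 fold change of Aim2 was 0.39 (SE 0.31), and 0.70 (SE 0.31) for the combination against 0 Gy with isotype, which shares its controls with the isotype comparison. These values belong to the same choice and are likewise a description.

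**Figure D2:**
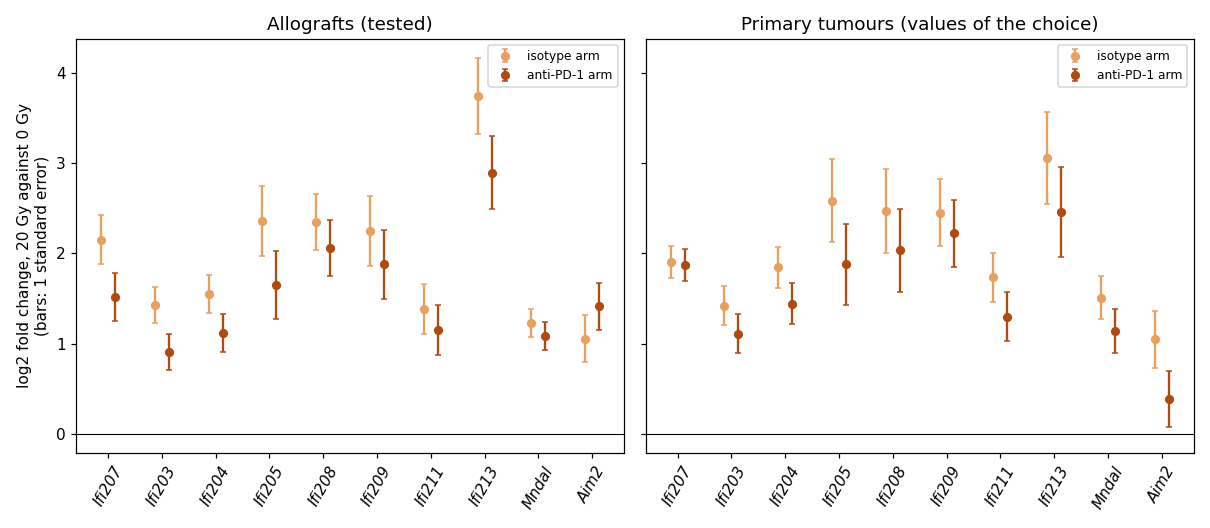
Log2 fold change of each gene after 20 Gy against 0 Gy, with bars of 1 standard error, in the allografts (left, tested) and in primary tumours (right, where Ifi207's value led to the choice). In both kinds Ifi213 has the largest change; Aim2 with anti-PD-1 is at 1.42 in allografts and 0.39 in primary tumours.

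Side by side with the allografts, Aim2 with anti-PD-1 was thus at 1.42 and 0.39, and Ifi207 at 1.52 and 1.87. With isotype Aim2 was at 1.05 in both kinds of tumour. Whether these differences between the kinds exceed the spread was not tested.

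One irradiated primary tumour stood apart. Replicate 5 of the 20 Gy anti-PD-1 group had the lowest level of its group in 9 of the 10 members, all but Ifi211, with Ifi205 at 3.67 CPM (the next lowest tumour was at 21.6), Ifi209 at 10.7 (37.1), Ifi208 at 1.30 (4.51) and Ifi213 at 0.113 (1.08). These values lie within the unirradiated range. Its Ifi207, at 57.6 CPM, was the lowest of the irradiated tumours too but above the highest unirradiated one of either arm (41.8 CPM). The summed level of 10 macrophage markers in this tumour was the lowest of all primary tumours, 820 CPM, its 20 interferon-response genes summed to 1026 CPM against a group median of 3801, and its 10 T and NK cell markers summed to 11.1 CPM. What part these have in the low values was not tested.

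Whether anti-PD-1 alone moved the family was tested at each dose. In the unirradiated allografts all 10 log2 fold changes were above 0, from 0.17 (Aim2) to 0.95 (Ifi213), with a median of 0.57 against −0.0047 over all genes. None was called: edgeR gave an adjusted p of 1.0 for each, with 4 members (Ifi204, Ifi205, Ifi207 and Ifi213) under 0.05 before adjustment, as were 1.69% of all genes. DESeq2 likewise called 0 members, and edgeR called 0.0% of all genes. For Ifi207 the 95% interval of the log2 change was 0.01 to 1.12, and for Aim2 −0.38 to 0.71, so a log2 change of 1 lies inside the first interval and outside the second. Marker lists of T and NK cells (median 0.90), B cells (1.02), monocytes and neutrophils (0.82) and the interferon response (0.57) had positive medians in the same tumours with 0 genes called, and their part in the members' values was not tested.

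At 20 Gy the anti-PD-1 values in the allografts ran from −0.12 (Ifi203) to 0.53 (Aim2), and edgeR called 0 members, with 0 at an unadjusted p below 0.05, 0 called by DESeq2, and 0.0% of all genes called. Aim2 had 95% limits of −0.02 and 1.08. In the primary tumours Ifi207 differed by 0.04 at 0 Gy (95% interval −0.32 to 0.39) and by 0.0021 at 20 Gy (−0.35 to 0.36), values given as a description because its choice favours small differences within a dose. The other members were at −0.15 (Mndal) to 0.47 (Ifi205) at 0 Gy and at −0.60 (Ifi213) to −0.23 (Ifi205) at 20 Gy, where 9 of 10 members were below 0. List medians in that 20 Gy comparison were −0.43 for the interferon response, −0.02 for T and NK cells, 0.07 for macrophages and 0.42 for monocytes and neutrophils. The part of these lists in the members' values was not tested. edgeR called 0 members at either dose (0.0% of all genes), 0 had an unadjusted p below 0.05 at 0 Gy and 1 at 20 Gy (Mndal, p 0.0364, edgeR adjusted p 0.601), where 8.09% of all genes were below it, and DESeq2 called 0.

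**Figure D3:**
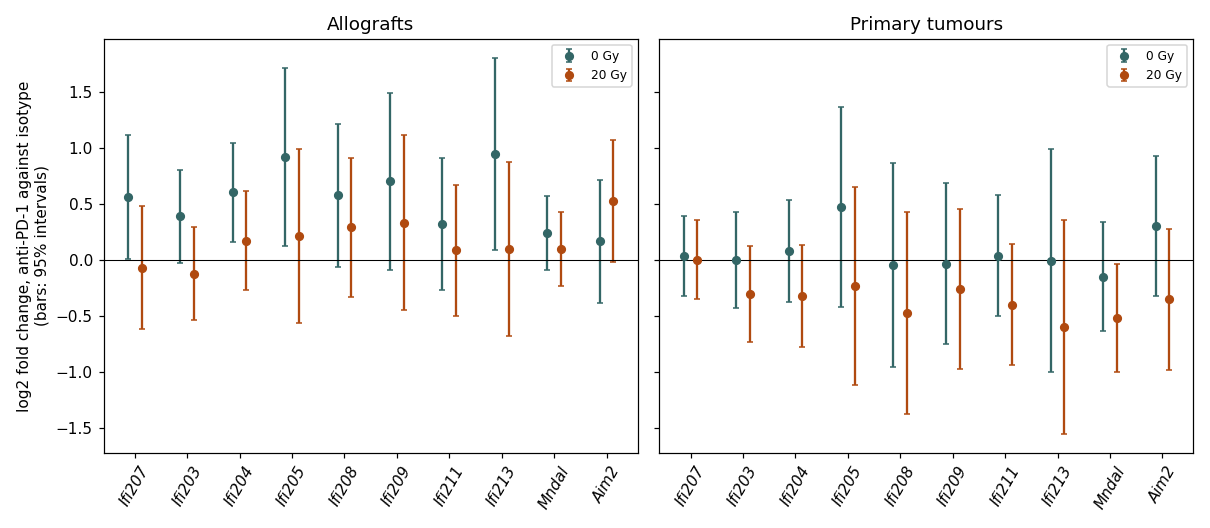
Log2 fold change of each gene with anti-PD-1 against isotype, at 0 Gy and at 20 Gy, with 95% intervals, in allografts (left) and primary tumours (right). In the unirradiated allografts all 10 points lie above 0, from 0.17 to 0.95, and for Ifi207 in the primary tumours both points lie within 0.04 of 0.

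The test of whether the response to dose differed between the antibody arms called 0 members in either tumour kind with edgeR, with 0 members at an unadjusted p below 0.05, 0 called by DESeq2, and 0.0% of all genes called in either kind. In the allografts the difference was negative for 9 of 10 members, the exception being Aim2 at 0.36 (SE 0.36), and for Ifi207 it was −0.64 (SE 0.37). For the primary tumours it was negative for 10 of 10 members, at −0.66 (SE 0.44) for Aim2 and, as a description, at −0.03 (SE 0.25) for Ifi207. A gene chosen for its clear dose change in these tumours is favoured to change alike in both arms, so the value of Ifi207 is no test. The members share tumours and partly reads, so their common sign is not 10 separate observations.

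The unirradiated primary tumours and allografts were compared within each antibody arm. At 0 Gy with isotype edgeR called 0 of 10 members, where 9.97% of all genes differed, DESeq2 called 0 members, and 1 member had an unadjusted p below 0.05 with edgeR, as did 26.1% of all genes. That member was Ifi207, at 29.6 ± 3.67 CPM (SD, n = 8) in the primary tumours and 21.4 ± 8.03 (n = 4) in the allografts, a log2 difference of 0.46 (SE 0.20, edgeR adjusted p 0.157). Without replicate 3 of the allografts, the tumour with the high Ifi207 value, Ifi207 was called (log2 difference 0.75, edgeR adjusted p 0.0130). The choice of Ifi207 favours a small spread in these primary tumours, so neither value is an independent test. At 0 Gy with anti-PD-1 all 10 members were lower in the primary tumours and edgeR called 0, where 8.91% of all genes differed. Ifi209 came nearest, at 10.9 ± 4.30 CPM against 25.2 ± 13.3, a log2 difference of −1.20 (SE 0.36, edgeR adjusted p 0.0563), and it was called by DESeq2 (adjusted p 0.0155) and by edgeR with all 8 groups in 1 fit (adjusted p 0.048).

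The other genes of the cluster and of the pathway were read from lists. The 4 further family genes that could be matched were Ifi202b, Ifi206, Ifi214 and the pseudogene Ifi203-ps. They were called higher after 20 Gy in both antibody arms of the allografts (4 of 4), with medians of 2.35 and 2.00 on the log2 scale. The share of all genes called higher was 4.38% with isotype and 3.08% with anti-PD-1. Transcript windows also found in another gene in or next to the cluster were 17.6% for Ifi206, 11.6% for Ifi203-ps, 10.0% for Ifi214 and 0% for Ifi202b. The calls of Ifi206, Ifi203-ps and Ifi214 may therefore hold reads of members, and how far they do was not tested. Of 16 matched genes for DNA sensing and the inflammasome, 9 were called higher in the allografts with isotype (median 0.74) and 8 with anti-PD-1 (median 0.96). Among them Casp1, the protease activated by the Aim2 inflammasome, had log2 fold changes of 1.23 and 1.44 in these arms (edgeR adjusted p 0.0265 and 0.0166), and Zbp1, another sensor of nucleic acids, 1.95 and 1.29 (0.00293 and 0.0310). Ifnb1, which encodes interferon beta, had 2.83 and 3.14 (0.0327 and 0.0297) at low levels, below 1 CPM in every unirradiated tumour. After 20 Gy it was at 2.21, 0.37, 0.33 and 0.67 CPM in the isotype allografts. With anti-PD-1 the irradiated allografts were at 1.59, 0.28, 1.02 and 0.21 CPM. Not called in either arm were Pycard, the Aim2 adaptor (0.82 and 0.91), Tmem173, which encodes STING (0.55 and 0.25), and Il1b (0.84 and 1.23). Of 12 genes of the interferon receptors and their transcription factors 5 were called with isotype and 2 with anti-PD-1, Irf9, a subunit of the factor that binds ISRE, being called in both (1.18 and 0.87). The interferon-response list had 20 of 20 genes called with isotype (median 2.75) and 17 of 20 with anti-PD-1 (median 1.99); it holds none of the members and shares 2 genes with the list before it.

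Markers of host cells were also counted in the allografts. Over all genes, 4.38% were called higher after 20 Gy with isotype, 3.08% with anti-PD-1 and 7.45% for the combination. With isotype, the 10 macrophage markers summed to 1715 to 2583 CPM at 0 Gy and 3052 to 4831 CPM at 20 Gy, and with anti-PD-1 to 1333 to 3429 and 3120 to 5803 CPM, with 2 of 10 genes called higher in each arm (medians of 0.90 and 0.87 on the log2 scale). The 10 monocyte and neutrophil markers summed to 339 to 606 and 845 to 1419 CPM with isotype (1 called, median −0.06) and to 253 to 1317 and 1057 to 2857 CPM with anti-PD-1 (2 called, median 0.97). The 10 T and NK cell markers summed to 67.8 to 195.8 and 209 to 310 CPM with isotype (2 called, median 0.27) and to 124.1 to 389.6 and 343 to 626 CPM with anti-PD-1 (1 called, median 0.33). For the combination against 0 Gy with isotype, 6 of 10 macrophage, 4 of 10 monocyte and neutrophil and 4 of 10 T and NK cell markers were called higher (medians 1.12, 1.15 and 1.14). Of the 8 B cell markers 0 were called in either arm and 1 for the combination, and 4 were below 1 CPM in every unirradiated isotype allograft. Dendritic cell markers had 1 of 8 called in each arm, and those of skeletal muscle and of mesenchymal cells 0 in each. In bulk tissue more cells of a type and more RNA per cell cannot be told apart, and the part of these markers in the members' changes was not tested. Xist was above 10 CPM in 1 of 4 unirradiated and 3 of 4 irradiated allografts of each arm, and with that as a covariate edgeR called 9 members in the isotype arm and 8 in the anti-PD-1 arm. Those lost had log2 fold changes of 1.14 for Aim2 with isotype (1.05 without the covariate) and, with anti-PD-1, 1.12 for Ifi211 (1.15) and 0.78 for Ifi203 (0.91).

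How the members varied between tumours of the same dose was read in the primary tumours, against the mean log2 CPM of the interferon-response and of the macrophage markers (16 tumours a dose, 40 relations, p from 100000 permutations, 2-sided, Benjamini-Hochberg over the 40). Ifi207 was chosen as the clearest gene of the dose contrast, which favours a small spread within a dose, so its coefficients are given as a description. Of the other 9 members 8 passed with the interferon-response list at 0 Gy, all but Aim2. Their lowest r was 0.692 (Ifi205), and 0.863% of 17147 genes outside the list had an r as high or higher. The closest was Ifi204, with a Pearson r of 0.929 and a Spearman rho of 0.859 (permutation p 1e-05 and adjusted p 0.000133 for r, the former being the smallest that the permutations can give), and 0.867 without the 2 tumours farthest from the median of the list. Within the antibody arms r was 0.942 with isotype and 0.928 with anti-PD-1. For Ifi207 r was 0.258 and rho 0.435. For Aim2 r was 0.522 and rho 0.471 (permutation adjusted p 0.0817 and 0.172). Without the 2 farthest tumours 4 of the 8 relations still passed, those of Ifi204, Ifi208, Ifi209 and Ifi211, while r was 0.659 for Ifi213 (permutation adjusted p 0.0521), 0.598 for Ifi203, 0.581 for Ifi205 and 0.576 for Mndal (permutation adjusted p 0.105 to 0.118). Whether the coefficients differ between members was not tested.

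At 20 Gy 6 of the 9 passed by Pearson's r and 5 by Spearman's rho. The lowest r of the 6 was 0.799 (Ifi213), which 0.49% of genes outside the list reached. Ifi204 was again the closest member (r 0.955, rho 0.821, permutation adjusted p 0.000133 and 0.0012). Without the 2 farthest tumours 3 of the 6 still passed, Ifi203, Ifi204 and Ifi211, and r was 0.521 for Mndal, 0.449 for Ifi208 and 0.267 for Ifi213 (permutation adjusted p 0.188 to 0.577). Within the isotype arm, which does not hold them, r was 0.665 for Mndal, 0.608 for Ifi208 and 0.120 for Ifi213, against 0.955, 0.882 and 0.865 with anti-PD-1. Ifi207 had r 0.600 and rho 0.353, and r 0.018 without the 2 farthest tumours, with 0.322 in the isotype and 0.705 in the anti-PD-1 arm. These tumours are replicates 4 and 5 of the anti-PD-1 group, whose interferon-response lists had means of 5.84 and 5.24 log2 CPM, within the unirradiated range, while their Ifi207 levels of 85.5 and 57.6 CPM were above those of all 16 unirradiated primary tumours. That separation of Ifi207 by dose is what led to the choice of the family, so these values are a description. The reverse case was replicate 4 of the 0 Gy isotype group, with an interferon-response mean of 7.12 log2 CPM and an Ifi207 level of 34.4 CPM, below all 16 irradiated tumours; its Ifi204 was at 96.8 CPM, above the Ifi204 of those 2 irradiated tumours (84.9 and 74.8 CPM). Aim2 had r 0.018 and rho −0.271 at 20 Gy, r −0.510 without the 2 farthest tumours (permutation adjusted p 0.189), and r −0.786 in the isotype and 0.130 in the anti-PD-1 arm. With the macrophage markers 0 of 10 relations passed at 0 Gy (r −0.232 to 0.389) and 1 at 20 Gy, that of Ifi205, whose r 2.53% of genes outside the list reached (r 0.740, permutation adjusted p 0.0431; rho 0.479, permutation adjusted p 0.165), which fell to 0.415 without the 2 farthest tumours. With DESeq2 size factors Aim2 passed as well (r 0.554, permutation adjusted p 0.0466).

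**Figure D4:**
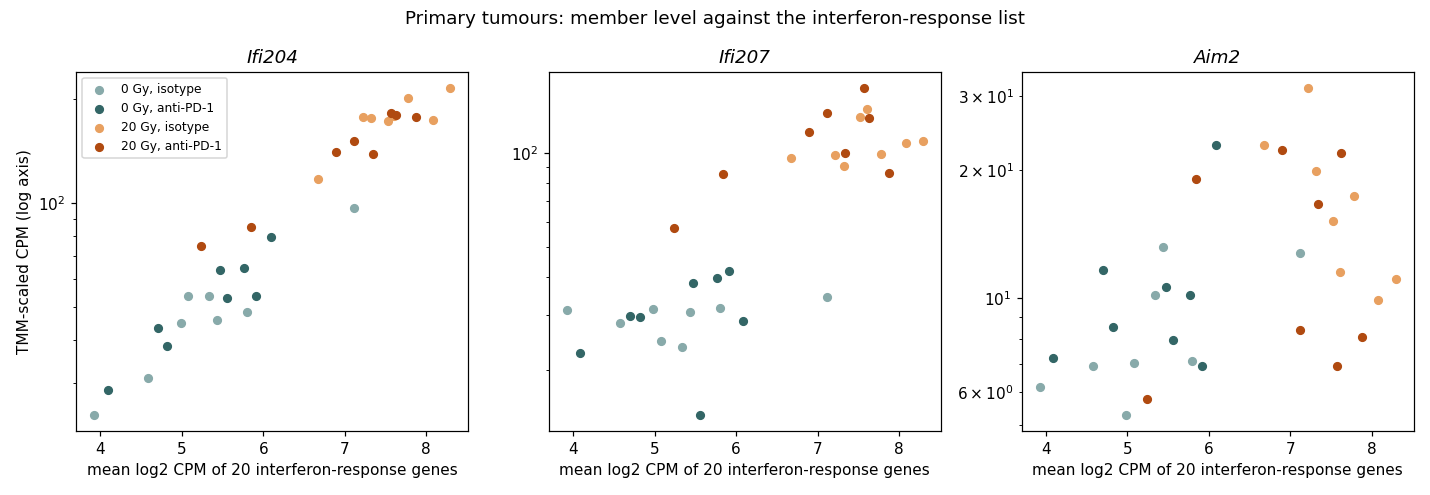
Level of Ifi204, Ifi207 and Aim2 (TMM-scaled CPM, log axis) against the mean log2 CPM of 20 interferon-response genes in the 32 primary tumours, coloured by dose and antibody. Ifi204 rises along the axis within each dose (r 0.929 and 0.955), Ifi207 shows the separation by dose for which the family was chosen, and Aim2 at 20 Gy has r 0.018 over all 16 tumours and −0.510 without the 2 farthest.

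Over the means of the 8 groups, the pattern of Ifi207 was compared with that of 11706 genes outside the family whose mean level was 5 CPM or more. The 5 most alike were Trim30c (Pearson r 0.990), Eif2ak2 (0.990), which encodes the double-stranded RNA-activated kinase PKR, Shisa5 (0.987), Fam53b (0.986) and Tor1aip1 (0.985). Those most like Aim2 were Zeb2os (0.997), Lpxn (0.995), 5430427O19Rik (0.992), Arrb2 (0.990) and Il21r (0.989). The 8 means mainly share the contrast of dose, and the genes were picked as the highest of many, so these coefficients are a description. Between members, r with Ifi207 over the 8 means ranged from 0.703 (Aim2) to 0.973 (Ifi205).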

How the data were processed

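Poly(A) RNA was sequenced from strand-marked (dUTP) libraries, per the labels' protocols. The authors deposited 1 table of whole-number counts per Ensembl gene. Per the submitters' processing notes, Trimmomatic 0.36, STAR and HTSeq were used with mm10; the annotation, the strand setting and the handling of ambiguous reads are not given in the sources used here, so genes that share sequence or overlap are uncertain. Columns of unlisted samples and rows naming no gene were 0.

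From the counts, genes were filtered with filterByExpr, scaled by TMM and tested with edgeR 4.0.16 (quasi-likelihood, 1 fit of the 4 groups of a tumour kind; the 2 groups compared for primary against allograft), with Benjamini-Hochberg over all genes and a threshold of 0.05. The SE is the log2 fold change divided by the square root of F, and 95% intervals use the test's degrees of freedom. DESeq2 1.42.0, its size factors in edgeR, no filter, the 2 groups alone, the identifier digit, Xist status, all 8 groups in 1 fit, the longest transcript and leaving out each tumour were tried. The fits were also run on simulated counts, with the outcome not reported here. Log2 CPM used a prior count of 2. R 4.3.3 and Python 3.11.15 with scipy 1.17.1 were used.

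Symbols, exons and coordinates are from GENCODE M21, and promoter sequence from RefSeq GRCm38.p6. All 10 members and the lists were chosen with earlier results of these data known. All members are named, with the 5 genes most like Ifi207 and Aim2, Trp53, and examples from the lists of cluster, DNA-sensing and interferon receptor genes and Cdkn1a from that of p53 targets; the other lists are given by counts, medians and sums. Replicate numbers follow accession order and pair nothing. With totals of 31.8 to 54.01 M counts, counting error weighs little against the differences between tumours, except for Ifi213, which was below 1 CPM in most unirradiated tumours.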

Additional observations from a re-analysis of the deposited data

Results flagged for a closer look

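In 7 of 80 member and group combinations 1 tumour lay far from the rest of its group by Dixon's criterion, which chance meets in about 1 of 20 groups at each test. Replicate 4 of the unirradiated primary tumours given isotype was the high tumour in 5 of them: Ifi204 at 96.8 CPM (the next was at 53.7), Ifi205 at 18.1 (7.85), Ifi208 at 7.82 (3.54), Ifi209 at 33.5 (12.0) and Ifi211 at 60.9 CPM (33.7). Its interferon-response genes summed to 3589 CPM, the highest of the unirradiated primary tumours, and its Ifi207, at 34.4 CPM against 31.7 for the next, did not stand apart. Ifi204 was low in replicate 6 of the 20 Gy isotype primary tumours, at 117.6 CPM against 172.8 for the next. Aim2 was high in replicate 4 of the 0 Gy anti-PD-1 primary tumours, at 22.9 CPM against 11.6. The causes were not tested.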

How the results depend on the processing

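Of the allograft dose results, the 10 calls with isotype ranged from 8 to 10 over the 8 fits that left out 1 tumour, and were 9 with Xist and 8 with the identifier digit as a covariate. With anti-PD-1 the 10 calls became 0 in the fit of only the 2 groups compared and 6 to 10 when 1 tumour was left out, 8 with Xist as a covariate. In the isotype arm the fit of only its 2 groups kept edgeR adjusted p at 0.00236 to 0.0121. The cause of this difference was not tested. The combination kept 10 throughout. Antibody and interaction comparisons stayed at 0 members in every alternative run. Primary against allograft at 0 Gy moved from 0 to 0 to 1 members with isotype when 1 tumour was left out, and with anti-PD-1 from 0 to 1 with DESeq2, 1 with all 8 groups in 1 fit and 0 to 2 when 1 tumour was left out (Ifi209 in each, and Ifi204 at an edgeR adjusted p of 0.0473 without replicate 4 of the primary tumours). Of the 40 correlations 16 passed and 7 without the 2 farthest tumours. These counts include Ifi207, whose coefficients are only a description. With DESeq2 size factors 16 passed too, but Ifi207 with the interferon-response list at 20 Gy was lost (permutation adjusted p 0.0634) and Aim2 with the macrophage markers at 20 Gy was gained (0.0466). With the longest transcript 43 of 80 levels per length moved by over 1 SD. No call of a member changed sign. No paired analysis was possible because the labels give the groups no shared replicate numbers. Depth limits Ifi213 most.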

Other observations

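In 14 of the 16 irradiated primary tumours 0 to 2 of the 10 members were below the highest unirradiated primary tumour, where 84.0 to 93.5% of all genes were not above it. The other 2 differed. In replicate 4 of the 20 Gy anti-PD-1 group, 7 of 10 members were below that level (77.9% of all genes), among them Ifi204 at 84.9 CPM (96.8). The other 3 were above it: Ifi205 at 28.7 CPM (25.1), Ifi207 at 85.5 (41.8) and Ifi209 at 46.8 (33.5). In replicate 5 of the same group, 9 of 10 were below it (90.3% of all genes) and Ifi207, at 57.6 CPM, was above. The separation of Ifi207 by dose in the primary tumours led to the choice of the family. These counts of members and the place of Ifi207 are therefore a description and support nothing further. Cdkn1a, the p53 target that encodes the cell cycle inhibitor p21, was at 454 and 76.1 CPM in these 2 tumours. The 16 unirradiated primary tumours had 27.8 to 84.7 CPM and the 15 irradiated ones other than replicate 5 had 152 to 454 CPM, so replicate 5 lay in the unirradiated range. In the allografts the list of p53 targets it belongs to had 3 of 16 genes called higher after 20 Gy with isotype and 5 of 16 with anti-PD-1 (medians of 0.42 and 0.67 on the log2 scale, edgeR). The 2 primary tumours were singled out after their values were seen, and no test was made of them.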
